A study of Mus musculus with 9 samples.

Results

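The constitutive proteasome genes were taken as every gene of the deposited count table whose symbol is Psma, Psmb, Psmc or Psmd followed by a digit, without the 4 inducible or thymic catalytic genes Psmb8, Psmb9, Psmb10 and Psmb11. This rule found 36 of 21959 genes. By their known place in the particle, 8 encode alpha subunits, 3 the constitutive catalytic beta subunits and 4 the other beta subunits of the 20S core. Of the rest, 6 encode ATPases, 3 the other subunits of the base and 8 the lid of the 19S cap, and 3 encode assembly factors of the base. The remaining gene, Psmc3ip, matches the pattern but encodes a recombination cofactor that is no proteasome subunit, so it is given apart from the subunits.

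The proteasome is the ATP-dependent protease that degrades proteins marked with ubiquitin. Its barrel-shaped core carries the proteolytic sites inside the beta rings, the alpha rings gate the entry, and the cap binds ubiquitin chains, removes them and unfolds the substrate. In antigen-presenting cells the fragments it makes also feed the peptides shown on MHC class I, and an inducible form exchanges the catalytic subunits for those encoded by Psmb8, Psmb9 and Psmb10. The transcription factor Nfe2l1 is known to raise proteasome genes when proteasome activity is short.

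The RNA came from the mouse line DC2.4, whose cells are of dendritic type, and total RNA gave 9 libraries in 3 groups, OMVSSDC, ZJDC and PBSDC, with 3 libraries each. According to the series' description the cells were treated with engineered extracellular vesicles, but neither OMVSS nor ZJ is spelled out in the labels, nor which of them held those vesicles, the dose or the time. PBSDC served as the reference. A single cell line stands for dendritic cells here, and separate cultures within a group are nowhere stated, which means that p-values measure a spread that may be technical only.

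Library totals ranged from 12784931 to 18388959 counts. OMVSSDC replicates 1 and 2 resembled each other, with a chi-square per degree of freedom of 1.87 over genes, and stood apart from replicate 3, at 59.3 and 61.8. Replicate 3 differed less from the 3 ZJDC libraries, at 7.43 to 10.2, so many results are also given with replicate 3 as the sole OMVSSDC library (7 libraries in the fit) or without it. In the fit of 7 libraries OMVSSDC has 1 library, so its p-values rest on the spread within ZJDC and PBSDC alone. Without replicate 3, OMVSSDC is left with replicates 1 and 2, which resembled each other. In neither fit do p-values for OMVSSDC measure the spread between replicate 3 and replicates 1 and 2. Of the myeloid and dendritic markers, Ptprc, Spi1, Csf1r, Irf8 and Cd74 were abundant. Zbtb46 reached 9.33 CPM at most, Batf3 7.43 CPM, Itgax 4.80 CPM and Flt3 0.288 CPM. Itgam had 95.6 to 151 CPM in OMVSSDC, 152 to 174 CPM in ZJDC and 328 to 344 CPM in PBSDC. Single markers moved both ways: Csf1r had 524 to 590 CPM in OMVSSDC and 1094 to 1172 CPM in PBSDC, Cd74 725 to 757 and 401 to 422 CPM. The 10 markers summed to 2749 to 2872 CPM in OMVSSDC, 2800 to 2854 CPM in ZJDC and 3184 to 3308 CPM in PBSDC, where CPM is the library-size-scaled count after TMM normalisation. Epithelial markers summed to 0.511 CPM at most and lymphoid markers to 1.15 CPM at most, with 4 of the 7, Cd3e, Cd3g, Cd8a and Ncr1, at 0 counts throughout. In such bulk samples, fewer cells with a transcript and less of it per cell cannot be told apart.

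Promoters of 5 members are shown for how their genes behaved in the results that follow: Psmb5 and Psmb6 were high in OMVSSDC replicates 1 and 2, Psmd12 holds the same motif as both but fell, Psmd1 had the largest decrease of a subunit in OMVSSDC against PBSDC and Psmd8 rose in both groups. Each is the sequence of the 250 bases before the annotated start, read 5′ to 3′ on the gene's strand, from RefSeq on GRCm38.p6. Psmb5 lies at chr14:54617996-54618245 (minus strand), Psmb6 at chr11:70525107-70525356 (plus), Psmd12 at chr11:107479278-107479527 (plus), Psmd1 at chr1:86064369-86064618 (plus) and Psmd8 at chr7:29180674-29180923 (minus). Capitals mark the letters TGACNNNGC on either strand, the core of the antioxidant response element that Nfe2l1 and Nfe2l2 are known to bind, and none of the 5 holds CCAAT, the box bound by NF-Y.
Psmb5: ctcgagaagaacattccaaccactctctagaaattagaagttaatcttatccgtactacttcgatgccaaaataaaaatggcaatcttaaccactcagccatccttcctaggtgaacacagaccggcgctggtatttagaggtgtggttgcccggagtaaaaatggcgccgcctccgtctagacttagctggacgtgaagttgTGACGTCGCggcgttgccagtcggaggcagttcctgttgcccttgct
Psmb6: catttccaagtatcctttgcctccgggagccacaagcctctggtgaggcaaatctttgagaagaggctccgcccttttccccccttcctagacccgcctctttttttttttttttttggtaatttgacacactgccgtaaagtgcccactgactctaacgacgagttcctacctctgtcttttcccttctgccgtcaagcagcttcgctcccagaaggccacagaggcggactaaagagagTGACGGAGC
Psmd12: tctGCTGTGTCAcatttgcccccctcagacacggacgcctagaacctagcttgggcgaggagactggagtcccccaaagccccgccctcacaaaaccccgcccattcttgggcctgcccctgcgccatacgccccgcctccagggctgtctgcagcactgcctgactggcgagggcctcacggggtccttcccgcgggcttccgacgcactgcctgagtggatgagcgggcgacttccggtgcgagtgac
Psmd1: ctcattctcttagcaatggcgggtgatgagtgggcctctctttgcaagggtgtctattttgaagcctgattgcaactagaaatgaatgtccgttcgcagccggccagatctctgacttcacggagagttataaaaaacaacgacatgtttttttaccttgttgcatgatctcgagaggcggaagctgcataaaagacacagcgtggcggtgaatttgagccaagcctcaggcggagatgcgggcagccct
Psmd8: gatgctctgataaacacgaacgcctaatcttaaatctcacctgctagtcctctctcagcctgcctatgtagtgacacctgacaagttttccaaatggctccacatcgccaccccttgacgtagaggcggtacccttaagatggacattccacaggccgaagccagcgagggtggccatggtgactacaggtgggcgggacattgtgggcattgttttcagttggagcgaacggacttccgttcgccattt

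Of the 36 members, 29 had at least 1 promoter in that table, 31 promoters in all. The letters TGACNNNGC were found in 5 of them, those of Psmb5, Psmb6, Psmc6, Psmd12 and Psmd9, against 10.2% of all 32851 promoters of the same length. CCAAT, on either strand, was found in 12 of the 31, against 33.8% of all promoters, and no member promoter held both motifs. A match is one of letters and no evidence of binding. The members that hold TGACNNNGC included genes that rose in OMVSSDC (Psmb5 and Psmb6), genes that fell (Psmc6 and Psmd12) and a gene that passed neither test over all 9 libraries (Psmd9).

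Decreases were found for most of the 17 subunits of the cap, 15 in OMVSSDC and 14 in ZJDC, with 1 and 2 rises. Of the 14 core genes tested, 5 fell and 3 rose in OMVSSDC, and 7 fell and 0 rose in ZJDC. In OMVSSDC against PBSDC, 22 of the 35 members tested fell and 5 rose, and their median log2 fold change was -0.35, against 0.05 over all 11568 genes tested. Over all these genes 30.2% fell and 33.4% rose at the same threshold, an adjusted p under 0.05 in edgeR's quasi-likelihood test. In ZJDC against PBSDC, 22 members fell and 3 rose, with a median of -0.40, against 0.01 over all genes, of which 27.1% fell and 27.6% rose. Both comparisons share the PBSDC libraries.

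Counted by library, all 3 OMVSSDC values lay below all 3 PBSDC values for 24 members and above them for 4. Over all genes tested the shares were 31.8% and 33.9%. All 3 ZJDC values lay below all PBSDC values for 28 members and above them for 4, against 36.0% and 36.2% of all genes. With OMVSSDC replicate 3 alone, 29 members were lower and 4 higher than in PBSDC, against 31.3% and 30.7% of 11948 genes in that fit. ZJDC against PBSDC then gave 28 lower and 4 higher members, against 34.1% and 34.2%. Without that replicate, 22 members were lower and 9 higher in OMVSSDC than in PBSDC, against 36.0% and 39.0% of 11761 genes. In ZJDC 28 were lower and 4 higher in that fit too, against 34.9% and 35.2%. Over all 9 libraries, Psmd1 and Psmc3ip in OMVSSDC were the members that changed more than 2-fold against PBSDC, and none did so in ZJDC.

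**Figure D1:**
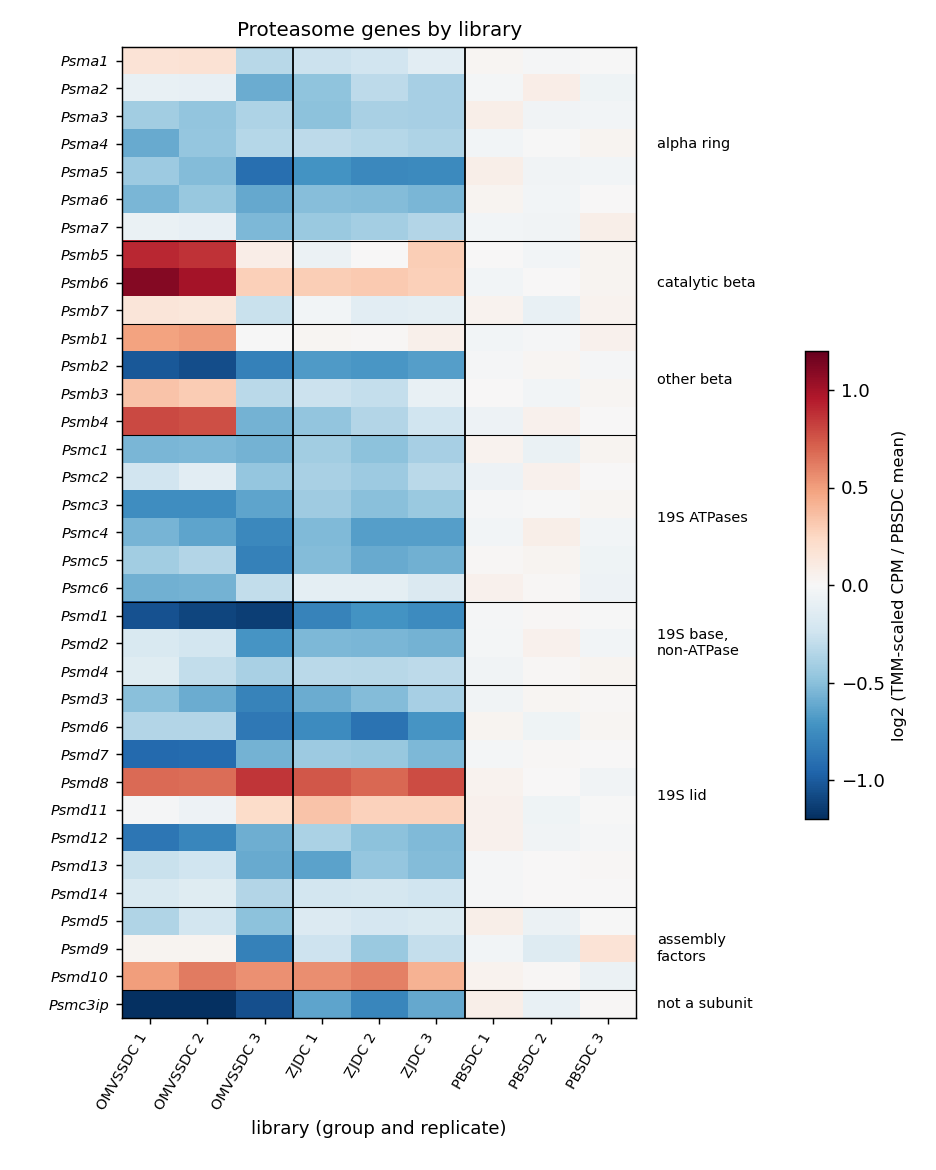
Heat map of the 35 members with counts (rows, by class) in the 9 libraries (columns), as log2 of the TMM-scaled CPM over the PBSDC mean, with colours saturating at 1.2. Blue fills most alpha, ATPase, base and lid rows of the OMVSSDC and ZJDC columns, Psmd8 and Psmd10 are red in all 6, and 6 of the 7 beta rows are redder in OMVSSDC 1 and 2 than in OMVSSDC 3.

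The catalytic subunits were all higher in OMVSSDC replicates 1 and 2 than in replicate 3. Psmb6, the caspase-like subunit beta 1, had 242, 225 and 138 CPM in OMVSSDC, 139, 140 and 137 CPM in ZJDC and 110, 113 and 115 CPM in PBSDC. Every OMVSSDC and ZJDC library was above every PBSDC library, and OMVSSDC replicate 3 sat among the ZJDC values. Psmb6 rose in OMVSSDC by 0.84 ± 0.17 on the log2 scale (SE, adjusted p = 0.00145 in edgeR), while its difference of 0.30 ± 0.17 in ZJDC did not pass (adjusted p = 0.151). With OMVSSDC replicate 3 alone its rise was 0.28 (adjusted p = 5.33e-04), and in that fit of 7 libraries ZJDC passed as well, at 0.30 (adjusted p = 1.99e-06).

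Psmb5, the chymotrypsin-like subunit beta 5 and the main target of proteasome inhibitors, had 21.2, 20.7 and 12.0 CPM in OMVSSDC, 10.8, 11.3 and 13.9 CPM in ZJDC and 11.3, 11.04 and 11.6 CPM in PBSDC. Replicates 1 and 2 of OMVSSDC were well above every other library, and replicate 3 was only just above PBSDC. Psmb5 rose in OMVSSDC by 0.67 ± 0.20 (adjusted p = 0.0147 in edgeR), a call that ended without OMVSSDC replicate 1 (adjusted p = 0.0552) or 2 (0.06003), and replicate 3 alone gave 0.08 (adjusted p = 0.722). In ZJDC its difference was 0.09 ± 0.20 (adjusted p = 0.735).

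Psmb7, the trypsin-like subunit beta 2, had 95.7, 95.1 and 72.1 CPM in OMVSSDC, 84.4, 79.1 and 79.9 CPM in ZJDC and 89.3, 81.4 and 88.9 CPM in PBSDC. Replicates 1 and 2 of OMVSSDC were above all PBSDC libraries and replicate 3 was below them. No difference passed for Psmb7 over all 9 libraries, at 0.02 ± 0.10 in OMVSSDC and -0.09 ± 0.10 in ZJDC, while replicate 3 alone gave -0.27 (adjusted p = 0.00538 in edgeR) and OMVSSDC without it 0.14 (adjusted p = 0.0326).

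Among the other beta subunits, Psmb4, the beta 7 subunit that completes the ring, had 194, 192 and 75.7 CPM in OMVSSDC, 80.8, 87.8 and 95.1 CPM in ZJDC and 108, 117 and 112 CPM in PBSDC. The OMVSSDC libraries fell on either side of PBSDC, 2 above and 1 below, and all ZJDC libraries were below PBSDC. Its difference was 0.45 ± 0.28 in OMVSSDC (adjusted p = 0.174 in edgeR) and -0.35 ± 0.28 in ZJDC (adjusted p = 0.302). Replicate 3 alone gave -0.57 (adjusted p = 1.22e-06), and without it OMVSSDC gave 0.78 (adjusted p = 3.86e-13). ZJDC passed in the fit of 7 libraries, at -0.35 (adjusted p = 4.92e-06).

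Psmb1, the beta 6 subunit, had 235, 239 and 168 CPM in OMVSSDC, 171, 170 and 175 CPM in ZJDC and 164, 166 and 174 CPM in PBSDC. Its rise of 0.35 ± 0.12 in OMVSSDC (adjusted p = 0.0237 in edgeR) rested on replicates 1 and 2, since replicate 3 alone gave -0.01. The call also ended without OMVSSDC replicate 1 (adjusted p = 0.0856) or 2 (0.0989) and without PBSDC replicate 1 (0.0738) or 2 (0.0750). Psmb3, the beta 3 subunit, ran from 85.6 to 135 CPM in OMVSSDC, 87.9 to 101 CPM in ZJDC and 105 to 109 CPM in PBSDC, and passed neither test over all 9 libraries. Replicate 3 alone gave -0.33 (adjusted p = 8.86e-04), and OMVSSDC without it 0.32 (adjusted p = 1.00e-05), so the direction turned with that library. For ZJDC Psmb3 gave -0.20 in the fit of 7 libraries (adjusted p = 0.00243).

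Psmb2, the beta 4 subunit, was the exception in the ring. It had 102, 98.5 and 117 CPM in OMVSSDC, 129, 127 and 130 CPM in ZJDC and 203, 210 and 204 CPM in PBSDC. The 3 groups did not overlap, and OMVSSDC replicate 3 was the highest of its group. Psmb2 fell by 0.96 ± 0.07 on the log2 scale in OMVSSDC (adjusted p = 1.76e-06 in edgeR) and by 0.68 ± 0.07 in ZJDC (adjusted p = 2.67e-05).

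**Figure D2:**
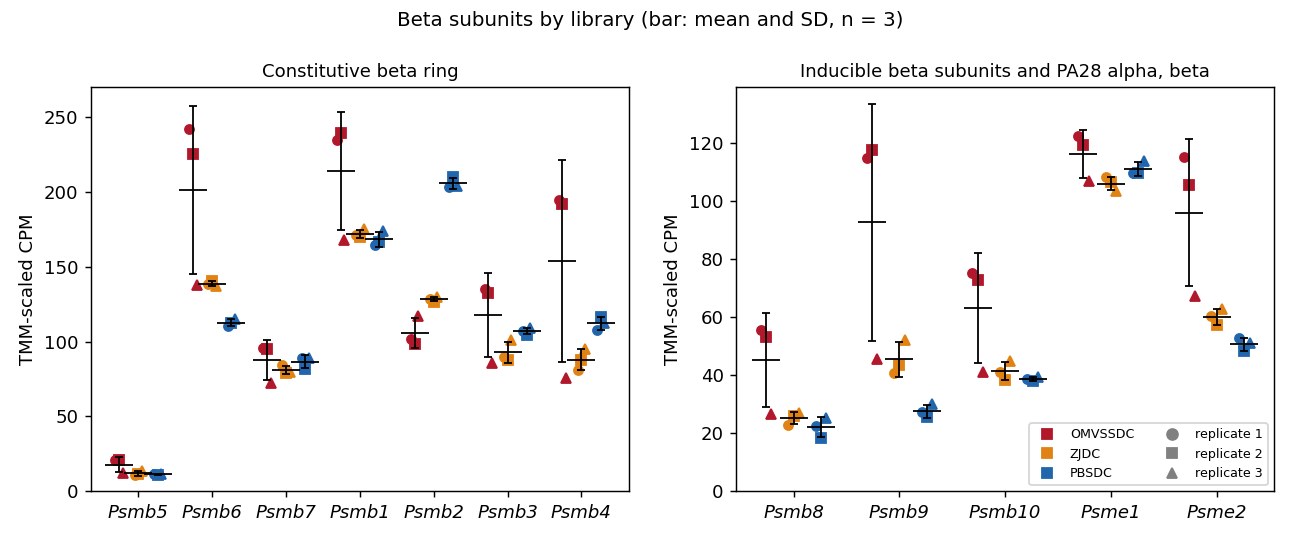
TMM-scaled CPM of the 7 constitutive beta genes (left) and of 3 inducible beta and 2 activator genes (right) in each library, with the mean and SD of each group (n = 3). In OMVSSDC the triangles of replicate 3 lie below the other 2 libraries and near ZJDC for every gene plotted except Psmb2, and Psmb6 reaches 242 CPM in replicate 1 against 138 CPM in replicate 3.

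Several other values moved with this split, and their part in it was not tested. Ribosomal protein genes, 79 in number, held 3.60%, 3.52% and 2.43% of the OMVSSDC counts by library, 2.37% to 2.57% of the ZJDC counts and 2.21% to 2.25% of the PBSDC counts. The heart and brain transcripts looked for as traces of other tissue summed to 6.20 to 21.2 CPM in OMVSSDC, 19 to 25.4 CPM in ZJDC and 34.8 to 37.8 CPM in PBSDC. All 10 of them were detected in at least 1 library. The 6 fibroblast or endothelial markers, also all detected, summed to 4.62 to 17.5 CPM in OMVSSDC, 9.18 to 13.9 CPM in ZJDC and 23.8 to 27.0 CPM in PBSDC. Over the 35 members with counts, OMVSSDC replicate 3 lay below both other OMVSSDC libraries for 24, above both for 10 and between them for 1. For 28 of the 35 it lay nearer the ZJDC mean than the mean of OMVSSDC replicates 1 and 2. These counts were not taken over all genes, so they cannot be read as particular to the members. Over genes at large replicate 3 also differed less from ZJDC, at a chi-square per degree of freedom of 7.43 to 10.2, against 59.3 and 61.8.

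Of the 7 alpha genes tested, 4 fell in OMVSSDC and the other 3 did not pass, against 30.2% lower over all genes. In ZJDC 6 fell and 1 did not pass, against 27.1%. Psma5, the alpha 5 subunit, had the largest decrease of its class, with 79.0, 74.8 and 57.3 CPM in OMVSSDC, 65.1, 62.7 and 63.0 CPM in ZJDC and 113, 104 and 105 CPM in PBSDC. No OMVSSDC or ZJDC library reached the PBSDC range. Psma5 fell by 0.61 ± 0.11 on the log2 scale in OMVSSDC (adjusted p = 6.19e-04 in edgeR) and by 0.75 ± 0.11 in ZJDC (adjusted p = 2.01e-04).

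Psma1, the alpha 6 subunit, was at the other end of the class, with 201, 203 and 143 CPM in OMVSSDC, 150, 153 and 164 CPM in ZJDC and 182, 178 and 178 CPM in PBSDC. It passed neither test over all 9 libraries, at 0.02 ± 0.12 in OMVSSDC and -0.21 ± 0.12 in ZJDC, with OMVSSDC libraries on both sides of PBSDC; replicate 3 alone gave -0.34 (adjusted p = 9.82e-05 in edgeR) and OMVSSDC without it 0.17 (adjusted p = 0.00265). In the fit of 7 libraries ZJDC gave -0.20 (adjusted p = 4.24e-04). Psma3, Psma4 and Psma6, the alpha 7, alpha 3 and alpha 1 subunits, fell in both groups, by 0.42 to 0.54 in OMVSSDC and 0.34 to 0.53 in ZJDC. Psma2 and Psma7, alpha 2 and alpha 4, fell in ZJDC alone among the tests over all 9 libraries, by 0.40 each, and their OMVSSDC differences were -0.24 (adjusted p = 0.103) and -0.23 (adjusted p = 0.0960). The Psma2 call ended without ZJDC replicate 1 (adjusted p = 0.0687) or PBSDC replicate 2 (0.0632), and a same-strand gene, AW209491, overlaps it in the table. Psma8, the testis form of alpha 4, had 0 counts in all 9 libraries, which allows at most 0.163 to 0.235 CPM of the unscaled library by library, and it was not tested; counting error alone is covered by that limit.

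The 6 ATPases form the unfolding ring of the cap. In OMVSSDC 6 of 6 fell, against 30.2% lower over all genes, and in ZJDC 5 of 6 fell, against 27.1%. Psmc3, the Rpt5 subunit, had 112, 112 and 121 CPM in OMVSSDC, 140, 133 and 138 CPM in ZJDC and 186, 187 and 191 CPM in PBSDC. Its 3 groups did not overlap, and it fell by 0.71 ± 0.06 on the log2 scale in OMVSSDC (adjusted p = 3.80e-06 in edgeR) and by 0.46 ± 0.06 in ZJDC (adjusted p = 1.07e-04). Psmc4, the Rpt3 subunit, had the largest decrease of the class in ZJDC, at 117, 111 and 101 CPM in OMVSSDC, 119, 109 and 108 CPM in ZJDC and 168, 180 and 167 CPM in PBSDC. It fell by 0.65 ± 0.07 in OMVSSDC (adjusted p = 3.18e-05) and by 0.61 ± 0.07 in ZJDC (adjusted p = 6.61e-05).

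At the weak end of the ATPases, Psmc2 (Rpt1) had 97.6, 105 and 83.2 CPM in OMVSSDC, 87.5, 84.7 and 91.1 CPM in ZJDC and 110, 119 and 115 CPM in PBSDC. It fell by 0.27 ± 0.09 in OMVSSDC (adjusted p = 0.0193 in edgeR), a call that ended without PBSDC replicate 2 (adjusted p = 0.0603), and by 0.38 ± 0.09 in ZJDC (adjusted p = 0.00352). Psmc6 (Rpt4) had 134, 135 and 163 CPM in OMVSSDC, 184, 184 and 177 CPM in ZJDC and 206, 201 and 191 CPM in PBSDC. All 3 groups stood apart in that order, and over all 9 libraries the decrease of 0.47 ± 0.08 in OMVSSDC passed (adjusted p = 5.95e-04) while the ZJDC difference of -0.14 ± 0.08 did not (adjusted p = 0.184). ZJDC passed in the fit of 7 libraries, at -0.13 (adjusted p = 0.0120). Psmc1 (Rpt2) and Psmc5 (Rpt6) fell in both groups, by 0.55 and 0.51 in OMVSSDC and by 0.44 and 0.57 in ZJDC.

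The 3 other base subunits fell in both groups, against 30.2% of all genes lower in OMVSSDC and 27.1% in ZJDC. Psmd1 (Rpn2), the large scaffold of the base, had 146, 140 and 137 CPM in OMVSSDC, 173, 182 and 177 CPM in ZJDC and 298, 304 and 298 CPM in PBSDC. The libraries of each group lay close together and the groups did not overlap. Psmd1 fell by 1.09 ± 0.06 on the log2 scale in OMVSSDC (adjusted p = 1.74e-07 in edgeR), more than 2-fold, and by 0.76 ± 0.06 in ZJDC (adjusted p = 2.75e-06). With OMVSSDC replicate 3 alone the log2 fold change was -1.14.

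Psmd2 (Rpn1), the other scaffold and a docking site for ubiquitin receptors, had 246, 240 and 171 CPM in OMVSSDC, 193, 191 and 189 CPM in ZJDC and 275, 290 and 274 CPM in PBSDC. It fell by 0.35 ± 0.12 in OMVSSDC (adjusted p = 0.0230 in edgeR), a call that ended without PBSDC replicate 1 (adjusted p = 0.0501) or 2 (0.0663), and by 0.55 ± 0.12 in ZJDC (adjusted p = 0.00279). Psmd4 (Rpn10), a ubiquitin receptor, had 172, 154 and 145 CPM in OMVSSDC, 152, 151 and 153 CPM in ZJDC and 184, 192 and 194 CPM in PBSDC, and it fell by 0.27 ± 0.07 in OMVSSDC (adjusted p = 0.00655) and 0.32 ± 0.07 in ZJDC (adjusted p = 0.00318).

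The lid gave both the clearest rise and 6 decreases out of 8 genes in each comparison. Of all genes, 30.2% were lower in OMVSSDC and 27.1% in ZJDC. Psmd8 (Rpn12) had 800, 795 and 905 CPM in OMVSSDC, 836, 808 and 861 CPM in ZJDC and 515, 500 and 484 CPM in PBSDC. All 6 libraries of OMVSSDC and ZJDC were far above PBSDC and overlapped one another. Psmd8 rose by 0.74 ± 0.07 on the log2 scale in OMVSSDC (adjusted p = 6.69e-06 in edgeR) and by 0.74 ± 0.07 in ZJDC (adjusted p = 9.75e-06). Psmd8 had the highest count of the lid, and the sum over the lid, with Psmd8 in it, was 1771 ± 83.8 CPM in OMVSSDC, 1880 ± 27.6 CPM in ZJDC and 1763 ± 19.5 CPM in PBSDC (SD, n = 3 each).

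Psmd7 (Rpn8), the partner of the deubiquitinase in the lid, had the largest decrease of the lid in OMVSSDC, with 138, 139 and 178 CPM in OMVSSDC, 195, 193 and 182 CPM in ZJDC and 260, 267 and 264 CPM in PBSDC. It fell by 0.80 ± 0.10 in OMVSSDC (adjusted p = 4.87e-05 in edgeR) and by 0.47 ± 0.10 in ZJDC (adjusted p = 0.00197). Psmd6 (Rpn7) had the largest decrease in ZJDC, with 61.0, 61.2 and 43.0 CPM in OMVSSDC, 46.2, 42.0 and 47.8 CPM in ZJDC and 79.5, 75.0 and 79.2 CPM in PBSDC. It fell by 0.50 ± 0.12 in OMVSSDC (adjusted p = 0.00520) and by 0.78 ± 0.12 in ZJDC (adjusted p = 4.46e-04). Neither gene passed the test of OMVSSDC against ZJDC over all 9 libraries.

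Psmd3, Psmd12 and Psmd13 (Rpn3, Rpn5 and Rpn9) fell by 0.36 to 0.74 in OMVSSDC and by 0.47 to 0.54 in ZJDC. Psmd14 (Rpn11), the deubiquitinase that removes ubiquitin chains at the entry, fell least of the lowered lid genes, by 0.23 ± 0.07 in OMVSSDC (adjusted p = 0.0120 in edgeR) and 0.22 ± 0.07 in ZJDC (adjusted p = 0.0158). Psmd11 (Rpn6) had 259, 251 and 306 CPM in OMVSSDC, 333, 317 and 317 CPM in ZJDC and 273, 253 and 262 CPM in PBSDC. It rose by 0.30 ± 0.08 in ZJDC (adjusted p = 0.00993), a call that ended without PBSDC replicate 2 (adjusted p = 0.0511), and its difference of 0.05 ± 0.08 in OMVSSDC did not pass (adjusted p = 0.583).

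The assembly factors of the base split 3 ways. Psmd10 (gankyrin) had 42.1, 45.7 and 43.5 CPM in OMVSSDC, 43.6, 45.2 and 39.6 CPM in ZJDC and 30.6, 30.0 and 28.3 CPM in PBSDC, and rose by 0.56 ± 0.08 in OMVSSDC (adjusted p = 1.37e-04 in edgeR) and 0.53 ± 0.08 in ZJDC (adjusted p = 2.84e-04). Psmd5 had 48.9, 53.8 and 44.6 CPM in OMVSSDC, 56.1, 54.6 and 55.1 CPM in ZJDC and 65.7, 59.8 and 62.6 CPM in PBSDC, and fell in OMVSSDC by 0.35 ± 0.08 (adjusted p = 0.00311). In ZJDC its difference was -0.18 ± 0.08 (adjusted p = 0.0761), which passed in the fit of 7 libraries (-0.18, adjusted p = 0.0111). Psmd9, at 15.7, 15.6 and 8.72 CPM in OMVSSDC, 12.9, 11.3 and 12.6 CPM in ZJDC and 14.98, 13.8 and 17.2 CPM in PBSDC, passed neither test over all 9 libraries. In the fit of 7 libraries its ZJDC value was -0.31 (adjusted p = 0.0163).

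Psmc3ip, which is no subunit, had 14.9, 14.2 and 16.6 CPM in OMVSSDC, 22.1, 19.95 and 22.5 CPM in ZJDC and 36.0, 32.3 and 34.7 CPM in PBSDC. It fell by more than 2-fold in OMVSSDC, by 1.17 ± 0.10 on the log2 scale (adjusted p = 3.00e-06 in edgeR), and by 0.67 ± 0.09 in ZJDC (adjusted p = 1.65e-04). Without this gene 21 of 34 members fell in OMVSSDC and 21 in ZJDC. No source used here gives the strand setting of the counting, and Psmc3ip, Psmc3, Psmd13, Psmb7, Psmd1, Psmd5, Psmd9 and Psma4 each overlap a gene on the other strand, so reads of Mlx, Slc39a13, Sirt3 or Nek6 could not be told apart from those of Psmc3ip, Psmc3, Psmd13 and Psmb7. Htr2b, Cutal, Hpd and AY074887, which overlap the other 4, had 72 counts at most over all libraries.

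With OMVSSDC replicate 3 alone, the decreases of several members against PBSDC were larger than over all 9 libraries. Their log2 fold changes were -0.71 for Psmd2, -0.86 for Psmd6, -0.46 for Psmc2 and -0.91 for Psma5. Other decreases were smaller, such as those of Psmb2 at -0.82 and Psmc3ip at -1.06. Replicate 3 lay above both other OMVSSDC libraries for 10 members. Psma2, Psma7 and Psmd9, which passed no test in OMVSSDC over all 9 libraries, had log2 fold changes of -0.60, -0.55 and -0.81 with replicate 3 alone. The rises of Psmd8 and Psmd10 had log2 fold changes of 0.85 and 0.55 there, and Psmd11 had 0.22.

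**Figure D3:**
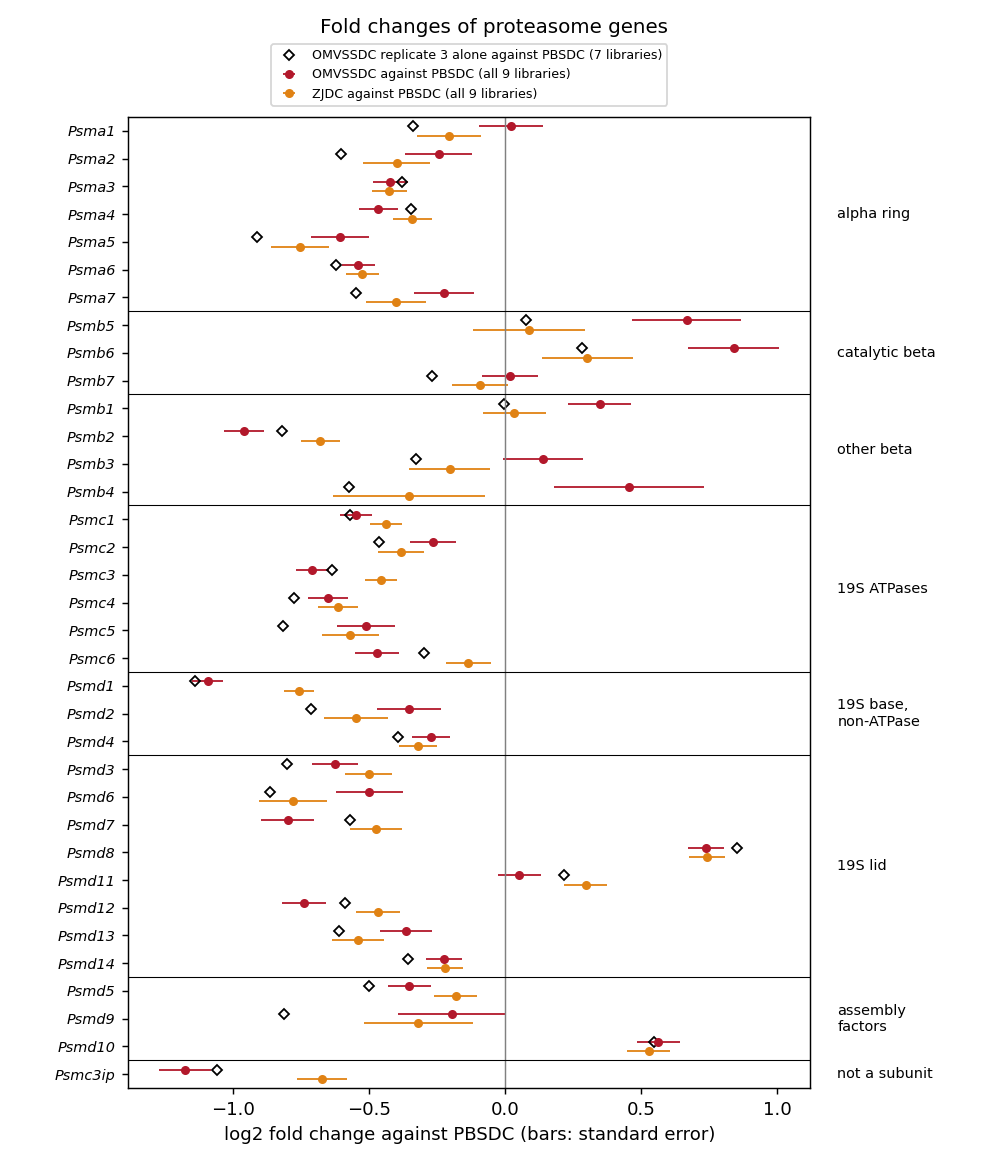
Log2 fold change against PBSDC of the 35 tested members, by class, for OMVSSDC and ZJDC (points with SE bars, all 9 libraries) and for OMVSSDC replicate 3 alone (open diamonds). Most points lie left of 0 in both groups, Psmd8 and Psmd10 lie right of it, and the diamonds of Psmb1, Psmb3, Psmb4, Psmb5 and Psmb6 lie nearer the ZJDC points than the OMVSSDC points.

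Set directly against ZJDC, OMVSSDC differed in few members over all 9 libraries. Psmd1 was lower (log2 fold change -0.33 ± 0.06, adjusted p = 0.0308 in edgeR), as was Psmc3ip (-0.50 ± 0.10, adjusted p = 0.0372), and 0 members were higher by edgeR. Of all genes, 1.10% were lower and 0.856% higher. At an unadjusted p under 0.05, edgeR gave 8 lower and 6 higher members, a count that was not taken over all genes. After adjustment, DESeq2 gave 8 lower and 2 higher members, against 770 and 722 of 11568 genes. By limma-voom 2 members were lower and 0 higher after adjustment, against 178 and 120 of these genes. Both edgeR calls ended when any 1 library other than OMVSSDC replicate 3 was left out, with adjusted p of 0.0729 to 0.158 for Psmd1 and 0.0781 to 0.187 for Psmc3ip.

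Without OMVSSDC replicate 3 the same comparison gave 16 higher and 9 lower members, against 27.6% and 28.0% of all genes. That library was left out because it stood apart, so the small p-values of this fit do not hold the spread it brings to OMVSSDC. All 3 catalytic genes and 3 of the other 4 beta genes were among the higher ones, with log2 fold changes of 1.13 for Psmb4 (adjusted p = 5.60e-15 in edgeR), 0.79 for Psmb5 (adjusted p = 1.23e-06) and 0.75 for Psmb6 (adjusted p = 4.49e-13). Psmb2 was lower, at -0.36 (adjusted p = 5.42e-07), as were Psmd7 at -0.46 and Psmc6 at -0.43. The ATPases split, with 2 higher and 2 lower of 6. Psmd8 did not pass (log2 fold change -0.07, adjusted p = 0.156), nor did Psmd10 (0.04, adjusted p = 0.668).

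Taken as a whole, the members held 0.528% ± 0.0468 of all counts in OMVSSDC, 0.4999% ± 0.00946 in ZJDC and 0.555% ± 0.00120 in PBSDC (SD, n = 3 each). OMVSSDC replicates 1 and 2, at 0.5559% and 0.5545%, lay within the PBSDC range of 0.5541% to 0.5565%. Only replicate 3 of OMVSSDC, at 0.4741%, lay below that range. Without Psmd8 the shares were 0.441% ± 0.0503, 0.416% ± 0.00635 and 0.508% ± 0.00223 in the same groups. In OMVSSDC the share without Psmd8 was 0.471% and 0.470% in replicates 1 and 2 and 0.383% in replicate 3. The summed alpha ring was 1037 ± 96.2 CPM in OMVSSDC, 985 ± 11.8 CPM in ZJDC and 1306 ± 14.1 CPM in PBSDC, and the summed ATPases were 703 ± 12.3, 766 ± 16.5 and 1020 ± 7.67 CPM. The summed beta ring was 898 ± 200 CPM in OMVSSDC, 713 ± 16.3 CPM in ZJDC and 804 ± 10.4 CPM in PBSDC, so that OMVSSDC libraries ran from 668 to 1024 CPM on either side of PBSDC.

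Levels were compared between genes per length, as deposited FPKM (fragments per length and depth). In OMVSSDC the order was led by Psmd8 at 284 ± 11.4 FPKM, Psma6 at 137 ± 11.6 FPKM and Psmb6 at 113 ± 34.4 FPKM (SD, n = 3). ZJDC was led by Psmd8 at 273 ± 10.7 FPKM, Psma6 at 132 ± 0.195 FPKM and Psmb2 at 107 ± 2.27 FPKM, and PBSDC by Psma6 at 182 ± 4.07 FPKM, Psmb2 at 163 ± 2.86 FPKM and Psmd8 at 156 ± 4.49 FPKM. The first place was held by a lid subunit in OMVSSDC and ZJDC and by an alpha subunit in PBSDC. Of these neighbours, Psma6 (125 to 148 FPKM) and Psmb6 (73.8 to 137 FPKM) overlapped in OMVSSDC, and Psmb2 (161 to 167 FPKM) and Psmd8 (152 to 161 FPKM) lay next to each other in PBSDC.

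Subunits that enter the core in equal number were not equal in deposited FPKM, which depends on the gene length that was deposited. That length was 899 bases for Psmb5 and 3894 bases for Psma3, and whether it matches the transcripts of these cells was not tested. In CPM, Psma3 was above Psmb5 in OMVSSDC, at means of 69.2 and 17.9 CPM. Among the 14 detected core genes the level ran from 18.6 to 137 FPKM in OMVSSDC, 13.4 to 132 FPKM in ZJDC and 12.1 to 182 FPKM in PBSDC, and among the 17 cap subunits from 19.8 to 284, 16.2 to 273 and 21.8 to 156 FPKM. Psmb5 was the lowest core gene in ZJDC and PBSDC, at 13.4 ± 2.02 and 12.1 ± 0.316 FPKM, and stood at 21.0 ± 6.60 FPKM in OMVSSDC, where its libraries fell on both sides of Psma3, the lowest core gene there at 18.6 ± 0.324 FPKM. The assembly factors Psmd5 and Psmd9 were lowest of all members in every group, with Psmd9 at 1.94 ± 0.629 FPKM in OMVSSDC, 1.69 ± 0.116 FPKM in ZJDC and 2.02 ± 0.229 FPKM in PBSDC.

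**Figure D4:**
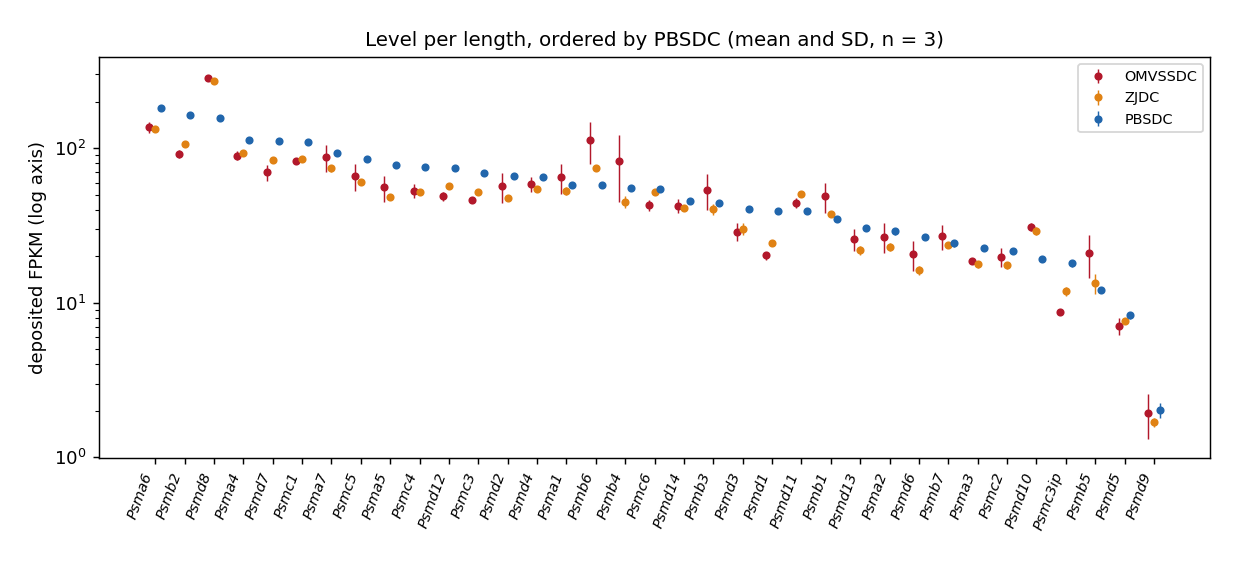
Deposited FPKM (log axis) of the 35 members with counts, as mean and SD per group (n = 3), ordered by the PBSDC mean. Psma6 leads at 182 FPKM in PBSDC, Psmd8 leads at 284 FPKM in OMVSSDC, and Psmd9 is last at about 2.02 FPKM in PBSDC.

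The constitutive catalytic subunits were also set beside their inducible counterparts, as the ratio of FPKM values within a library and with no test. These ratios depend on the deposited gene lengths, so a ratio alone does not rank the genes of a pair. In CPM, Psmb7 was above Psmb10 in OMVSSDC, at means of 87.6 and 63.1 CPM. Psmb6 over Psmb9 was 4.11, 3.75 and 5.89 in OMVSSDC, 6.64, 6.30 and 5.14 in ZJDC and 7.88, 8.61 and 7.50 in PBSDC. Psmb7 over Psmb10 was 0.634, 0.650 and 0.871 in OMVSSDC, 1.02, 1.03 and 0.890 in ZJDC and 1.15, 1.06 and 1.12 in PBSDC. Psmb5 over Psmb8 was 1.43, 1.46 and 1.69 in OMVSSDC, 1.77, 1.65 and 1.94 in ZJDC and 1.89, 2.24 and 1.73 in PBSDC. For each pair the OMVSSDC ratios were all below the PBSDC ratios. The inducible genes were higher in OMVSSDC in this fit: Psmb9 rose by 1.75 ± 0.30 on the log2 scale (adjusted p = 5.17e-04 in edgeR), Psmb8 by 1.03 ± 0.24 (adjusted p = 0.00362) and Psmb10 by 0.70 ± 0.19 (adjusted p = 0.00796). With replicate 3 alone, Psmb9 gave 0.72 (adjusted p = 1.57e-05), Psmb8 0.27 (adjusted p = 0.0974) and Psmb10 0.08 (adjusted p = 0.5001). None of the 3 passed in ZJDC over all 9 libraries, where Psmb9 gave 0.72 ± 0.30 (adjusted p = 0.0619). In the fit of 7 libraries Psmb9 passed in ZJDC, at 0.73 (adjusted p = 8.72e-08).

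Of 48 other genes of the pathway found in the table, 47 were tested; the remaining one, the thymic Psmb11, had 0.177 CPM at most. In OMVSSDC 15 rose and 15 fell, with a median log2 fold change of -0.09, against 33.4% and 30.2% of all genes. In ZJDC 9 rose and 11 fell, with a median of -0.10, against 27.6% and 27.1%. The counts by class that follow are over all 9 libraries and have the same shares of all genes behind them. The fit of 7 libraries had 12 higher and 19 lower in OMVSSDC and 13 higher and 17 lower in ZJDC, against 30.7% and 31.3%, and 34.2% and 34.1%. Ubqln1, a ubiquitin shuttle, was the single one to pass in OMVSSDC against ZJDC, with a log2 fold change of -0.50 ± 0.10 (adjusted p = 0.0450 in edgeR).

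Of the cap subunits named outside the rule, 1 rose and the other passed no test over all 9 libraries. Sem1, the small lid subunit, had 138, 133 and 125 CPM in OMVSSDC, 118, 112 and 107 CPM in ZJDC and 101, 96.9 and 98.9 CPM in PBSDC, and rose by 0.42 ± 0.07 in OMVSSDC (adjusted p = 2.91e-04 in edgeR) and 0.19 ± 0.07 in ZJDC (adjusted p = 0.0333). Adrm1 (Rpn13), a ubiquitin receptor, gave -0.05 ± 0.14 in OMVSSDC and -0.30 ± 0.14 in ZJDC and passed neither test over all 9 libraries. Replicate 3 alone gave -0.42 (adjusted p = 0.00325), and ZJDC in that fit -0.29 (adjusted p = 0.00236).

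Activators of the core were among both the lower and the higher genes. Psme3, the nuclear activator PA28 gamma, had 130, 128 and 165 CPM in OMVSSDC, 195, 177 and 183 CPM in ZJDC and 371, 360 and 364 CPM in PBSDC. It fell by 1.37 ± 0.10 on the log2 scale in OMVSSDC (adjusted p = 1.10e-06 in edgeR) and by 0.98 ± 0.09 in ZJDC (adjusted p = 1.56e-05). Psme4, the activator PA200, rose by 0.56 ± 0.06 in OMVSSDC (adjusted p = 2.98e-05) and 0.46 ± 0.06 in ZJDC (adjusted p = 1.72e-04). Psme1 and Psme2 encode the interferon-inducible activator PA28 alpha and beta. Psme2 rose by 0.92 ± 0.16 in OMVSSDC (adjusted p = 6.72e-04), with 0.40 in replicate 3 alone (adjusted p = 2.13e-04), and in that fit it passed in ZJDC at 0.25 (adjusted p = 9.16e-04). Psme1 gave 0.06 ± 0.07 in OMVSSDC and did not pass over all 9 libraries, but passed as higher without replicate 3 (0.12, adjusted p = 0.0367). Psmf1, the inhibitor PI31, fell by 0.25 ± 0.09 in OMVSSDC (adjusted p = 0.0267) and 0.36 ± 0.09 in ZJDC (adjusted p = 0.00544).

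Of the 7 assembly chaperones of the core and their partners, 1 rose and 1 fell in OMVSSDC, and in ZJDC 1 fell. In the fit of 7 libraries, 4 were lower and 0 higher in OMVSSDC, and 4 lower and 1 higher in ZJDC. Pomp, Psme3ip1, Psmg1 and Psmg2 were the lower ones in both comparisons. Pomp, the maturation factor of the core, fell by 0.40 ± 0.11 in ZJDC (adjusted p = 0.00985 in edgeR) and gave -0.10 ± 0.11 in OMVSSDC. Akirin2, which carries proteasomes into the nucleus, rose by 0.24 ± 0.10 in OMVSSDC (adjusted p = 0.0479), a call that replicate 3 alone did not give (adjusted p = 0.287), and gave 0.22 ± 0.10 in ZJDC (adjusted p = 0.0789). Psme3ip1, a binding partner of PA28 gamma, fell by 0.74 ± 0.15 in OMVSSDC (adjusted p = 0.00180), with -0.36 in replicate 3 alone. The chaperone Psmg3 was at 0.891 to 2.07 CPM in all libraries and passed neither test over all 9.

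Of the 6 associated enzymes, 3 fell in OMVSSDC and 2 in ZJDC. Uchl5 and Usp14, deubiquitinases that act on the cap, fell by 0.91 ± 0.15 and 0.55 ± 0.06 in OMVSSDC (adjusted p = 4.33e-04 and 2.25e-05 in edgeR) and by 0.51 ± 0.15 and 0.45 ± 0.06 in ZJDC (adjusted p = 0.0144 and 1.29e-04). The ubiquitin ligases Ube3a and Ube3c passed neither test over all 9 libraries, and Ube3a passed as lower in OMVSSDC without replicate 3 (-0.18, adjusted p = 0.0117). Among the 6 ubiquitin and activating enzyme genes, Ubb rose by 0.48 ± 0.05 in OMVSSDC (adjusted p = 3.49e-05) and by 0.49 ± 0.05 in ZJDC (adjusted p = 4.12e-05). Uba1, the main activating enzyme, fell by 0.50 ± 0.06 in OMVSSDC (adjusted p = 3.36e-05) and 0.41 ± 0.06 in ZJDC (adjusted p = 1.80e-04). Rps27a, which encodes ubiquitin fused to a ribosomal protein, had 650, 631 and 303 CPM in OMVSSDC, 307, 319 and 330 CPM in ZJDC and 255, 276 and 261 CPM in PBSDC, so that it too was highest in OMVSSDC replicates 1 and 2. The ubiquitin genes carry near-identical repeats, so reads may have been split among them and their values are uncertain.

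Of the 11 shuttle and segregase genes, 7 fell and 3 rose in OMVSSDC, and 4 fell and 3 rose in ZJDC. Zfand5 and Zfand2a, which help deliver substrates to the proteasome, rose by 0.99 ± 0.06 and 1.26 ± 0.15 in OMVSSDC (adjusted p = 3.74e-07 and 4.86e-05 in edgeR) and by 0.91 ± 0.06 and 0.86 ± 0.15 in ZJDC (adjusted p = 1.06e-06 and 8.49e-04). Vcp, the segregase that extracts ubiquitinated proteins, fell by 0.54 ± 0.10 in OMVSSDC (adjusted p = 6.33e-04) and 0.52 ± 0.10 in ZJDC (adjusted p = 0.00110). Ubqln1 and Ubqln4, shuttles to the cap, fell by 0.92 ± 0.10 and 0.80 ± 0.09 in OMVSSDC (adjusted p = 3.01e-05 and 2.55e-05) and by 0.42 ± 0.10 and 0.57 ± 0.09 in ZJDC (adjusted p = 0.00614 and 3.57e-04). Of the other lowered genes of this class in OMVSSDC, Rad23b, Ubqln2 and Ddi2 did not pass with replicate 3 alone (adjusted p = 0.0521, 0.138 and 0.310).

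Among the 7 regulators of proteasome genes, Nfe2l1 had 1060, 1044 and 878 CPM in OMVSSDC, 800, 834 and 905 CPM in ZJDC and 473, 452 and 485 CPM in PBSDC. Every OMVSSDC and ZJDC library was above every PBSDC library. Nfe2l1 rose by 1.08 ± 0.08 on the log2 scale in OMVSSDC (adjusted p = 2.22e-06 in edgeR) and by 0.85 ± 0.08 in ZJDC (adjusted p = 1.73e-05). Foxo4, a forkhead factor linked to Psmd11 in human stem cells, rose by 1.42 ± 0.18 in OMVSSDC (adjusted p = 7.38e-05) and 0.93 ± 0.18 in ZJDC (adjusted p = 0.00167).

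The NF-Y subunit gene Nfyc had 13.2, 10.6 and 12.4 CPM in OMVSSDC, 16.2, 16.3 and 15.4 CPM in ZJDC and 39.4, 40.9 and 38.0 CPM in PBSDC. It fell by 1.71 ± 0.10 in OMVSSDC (adjusted p = 3.12e-07 in edgeR) and fell by 1.31 ± 0.10 in ZJDC (adjusted p = 2.43e-06). The other NF-Y genes Nfya and Nfyb, Nfe2l2 and the Nfe2l1-processing enzyme gene Ngly1 passed neither test over all 9 libraries. In the fit of 7 libraries, Nfe2l2 was higher in OMVSSDC, at 0.17 (adjusted p = 0.0225), and Ngly1 lower, at -0.65 (adjusted p = 0.00321). Without that replicate Nfe2l2 was lower in OMVSSDC, at -0.40 (adjusted p = 1.32e-07). These are transcript levels, and the activity of these factors was not measured.

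**Figure D5:**
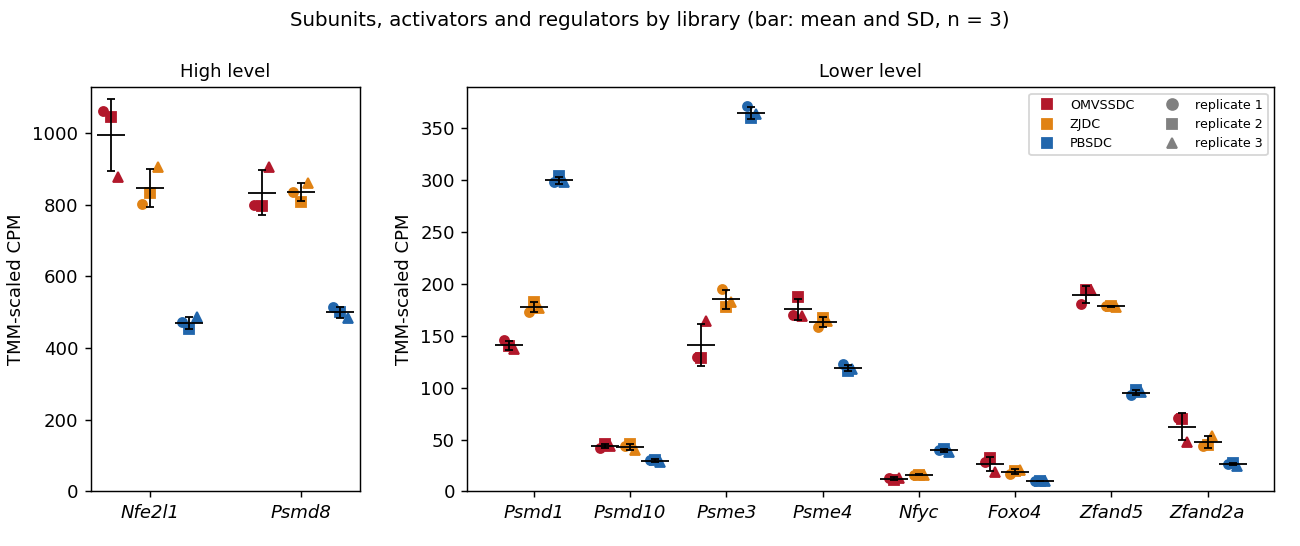
TMM-scaled CPM of Nfe2l1 and Psmd8 (left) and of 8 further members, activators and regulators (right) in each library, with the mean and SD of each group (n = 3). Psmd1, Psme3 and Nfyc are lower in OMVSSDC and ZJDC than in PBSDC, and the other genes plotted are higher, with Nfe2l1 at 1060 CPM in OMVSSDC replicate 1 against 473 CPM in PBSDC replicate 1.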

How the data were processed

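RNA-seq of 9 DC2.4 libraries was analysed, grouped by title. The tools were fastp 0.22.0, HISAT2 2.1.0 and HTSeq 0.9.1, per the submitters' processing notes. No source used here gives the genome build, annotation or strand setting. The authors deposited 1 table of raw read counts and FPKM values for 21959 genes. The deposited FPKM equal the count over gene length and library total.

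Counts were scaled by TMM, filtered at edgeR's defaults (count 10, total 15; 11568 genes) and tested with edgeR 4.0.16 (quasi-likelihood, robust; R 4.3.3) in 1 fit over the 9 libraries with group as the sole term and 6 residual degrees of freedom. P-values are Benjamini-Hochberg adjusted over all genes tested, and errors of log2 fold changes are SE. DESeq2 1.42.0, limma 3.58.1 (voom), other scalings and filters, a replicate block and left-out libraries were tried as alternatives. The procedure was also run on simulated data with the same spread for all libraries. These held no split within a group like that of OMVSSDC, so calls that turn on it were not checked. Library totals ran from 12784931 to 18388959 counts. The members and lists were chosen with earlier results of these data known. All members are accounted for, those past the threshold and those not, and other genes are named from the pathway list by role.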

Additional observations from a re-analysis of the deposited data

How the results depend on the processing

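Against PBSDC, the 22 lowered members in OMVSSDC and in ZJDC stayed within 1.5 times under every alternative run. The members higher in OMVSSDC numbered 3 with the length trend removed. When 1 library was left out they numbered 3 to 9 (3 without OMVSSDC replicate 1 or 2, 9 without replicate 3). Of all genes, 3330 were higher with the length trend removed and 3365 to 4584 with 1 library left out. With OMVSSDC replicate 3 alone, the log2 fold changes against PBSDC of Psmb4 (-0.57), Psmb1 (-0.0062), Psmb7 (-0.27), Psma1 (-0.34) and Psmb3 (-0.33) changed sign. Psmb1 merely lost its rise, since replicate 3 had 168 CPM against 164 to 174 CPM in PBSDC. Psmb7 and Psma1 had been at 0.02 each over all 9 libraries, without a call. Over all genes, a 1.2-fold threshold (glmTreat) left 2079 lower in ZJDC than in PBSDC.

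OMVSSDC against ZJDC depended most on the setting. Members higher numbered 2 by DESeq2 and 0 to 16 with 1 library left out. Members lower numbered 1 with library size alone, 8 by DESeq2, 0 with glmTreat, 0 with only the groups compared in the fit and 0 to 9 with 1 library left out. Over all genes, the higher ones numbered 722 by DESeq2, 0 with glmTreat, 0 with only the groups compared and 0 to 3243 with 1 library left out. The lower ones numbered 770, 2, 0 and 0 to 3296 under the same settings, 231 with the length trend removed and 214 with OMVSSDC replicate 3 alone.

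Same-numbered libraries had correlations of -0.388 to 0.0887, taken on deviations from each group's own mean, and different-numbered ones reached 0.326. Centring ties the deviations of a group together, so these values cannot show whether the numbers mark shared cultures or batches. With the replicate numbers as a block, OMVSSDC against ZJDC gave 0 lower members, 0 lower genes and 0 higher genes. Against PBSDC this block gave 5 higher and 22 lower members in OMVSSDC, against 3566 and 3301 of all genes. In ZJDC it gave 3 higher and 22 lower members, against 2957 and 2820 of all genes.

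The members' share of counts was 0.527% in ZJDC and 0.599% in PBSDC without mitochondrial genes, and 0.581% in PBSDC with TMM-scaled totals, which gave a median level of 57.0 FPKM in PBSDC. Library size alone moved the all-gene median log2 fold change to 0.18 in OMVSSDC and 0.08 in ZJDC against PBSDC. The members' median moved to -0.22 and -0.33, and no member with a call changed sign. In OMVSSDC 16 members were then lower and 6 higher, against 2819 and 4670 of all genes. In ZJDC 20 were lower and 3 higher, against 2717 and 3631 of all genes. Of the single-member values under alternatives, 1964 kept their side of the threshold, and 69 gained and 62 lost a call. A further 5 changed sign, with a call in the main fit, the alternative or both. The cause of these changes was not tested.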
